A study of Mus musculus with 13 samples.

Results

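The small leucine-rich proteoglycans are secreted proteins of the extracellular matrix, each a banana-shaped stack of leucine-rich repeats that can carry sulphated sugar chains. The 10 genes described here, Dcn, Bgn, Aspn, Lum, Fmod, Prelp, Kera, Omd, Ogn and Podn, were taken by name as the family's members, and all 10 were among the 14911 genes measured. RNA was taken from injured hamstring muscle, as a whole, in 13 mice, all female and C57BL/6. The injury, made 4 days earlier, was an intramuscular dose of 0.32 mg/kg cardiotoxin, a venom component that lyses fibres. Of these mice, 9 received dexamethasone, a synthetic glucocorticoid, intraperitoneally at 10 mg/kg once a day, and 4 received saline by the same schedule. Each library came from a different mouse, and none of the mice was uninjured. The submitters found bone in the injured muscle of every dexamethasone mouse, and they excluded the saline mouse in which bone had formed, so the drug and the bone cannot be told apart. The sources used here do not give the ages of the mice.

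Most of these proteins bind collagen fibrils and set how thick the fibrils grow and how they are spaced. Decorin, biglycan and asporin form a class, of which decorin and biglycan carry chondroitin or dermatan sulphate, whereas lumican, fibromodulin, PRELP, keratocan and osteomodulin form a class that mostly carries keratan sulphate. Several also bind growth factors of the TGF-beta family or cell surface receptors, and in muscle they are made chiefly by connective tissue cells between the fibres.

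The promoters of Prelp, Aspn and Bgn, the 3 called members with the largest rises given below, are shown because these genes moved in the same direction. Each line gives the 250 bases before the start used in RefSeq's promoter table, 5′ to 3′ on the gene's own strand (GRCm38.p6). Capitals mark every match, on either strand, to 4 short motifs: AGAACA, the core bound by a monomer of the glucocorticoid receptor; TGANTCA, the AP-1 site; TATAAA, the TATA box; and CCAAT. Prelp lies at chr1:133921402-133921651 on the minus strand, Aspn at chr13:49544193-49544442 on the plus strand and Bgn at chrX:73483351-73483600 on the plus strand. The Prelp window lies inside the wider RefSeq span given for the gene below, so it precedes the start of a shorter transcript and not the outermost start.
Prelp: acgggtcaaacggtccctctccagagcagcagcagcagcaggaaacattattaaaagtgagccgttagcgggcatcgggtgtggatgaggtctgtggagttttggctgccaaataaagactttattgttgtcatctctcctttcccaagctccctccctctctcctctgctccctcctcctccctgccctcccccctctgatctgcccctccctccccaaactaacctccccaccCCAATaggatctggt
Aspn: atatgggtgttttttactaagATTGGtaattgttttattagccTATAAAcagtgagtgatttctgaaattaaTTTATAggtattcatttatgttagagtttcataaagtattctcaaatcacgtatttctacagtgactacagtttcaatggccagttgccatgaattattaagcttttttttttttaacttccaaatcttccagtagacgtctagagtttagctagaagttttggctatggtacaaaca
Bgn: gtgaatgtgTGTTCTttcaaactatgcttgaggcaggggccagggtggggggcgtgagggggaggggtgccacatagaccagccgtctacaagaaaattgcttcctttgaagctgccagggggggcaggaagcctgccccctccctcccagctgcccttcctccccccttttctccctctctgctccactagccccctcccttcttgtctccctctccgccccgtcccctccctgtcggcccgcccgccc

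The windows differed in base composition. The G+C content was 55.6% for Prelp, 30.0% for Aspn and 64.4% for Bgn. The Aspn window held 2 TATA box matches, at base 44 from its 5′ end and, in reverse as TTTATA, at base 73. It also held a CCAAT match in reverse at base 22. The Bgn window held a single AGAACA match, in reverse as TGTTCT at base 10, and the Prelp window a single CCAAT match at base 236. Promoters were matched for 8 members, and AGAACA was present in 1 of the 8, against 16.2% of 27025 promoters of all genes. TGANTCA was in 0 of the 8 against 6.87% of all promoters, TATAAA in 2 (Aspn and Ogn) against 13%, and CCAAT in 3 (Aspn, Kera and Prelp) against 34.5%. The Kera window, not printed, lies almost wholly inside the span given for that gene. No match overlapped another in the windows printed. A match is a run of letters and was not tested as a binding site.

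Libraries held 28021111 to 34942266 reads in dexamethasone muscles and 25531487 to 32537345 in saline muscles, recovered from the deposited values. Levels are in log2 CPM, the log2 of reads scaled to a common library size. The size that the deposited values imply for a library was not its plain sum of reads. It was 0.99 to 1.10 times that sum in dexamethasone muscles and 0.88 to 1.00 times in saline muscles. Levels and their differences between groups depend on these sizes. Nothing says whether the mice were housed or processed together, so p-values measure the spread between these mice only. In a pair of libraries, genes outside the family set them apart. Dexamethasone replicate 4 had 7.92 log2 CPM of Fkbp5, a glucocorticoid-induced chaperone, against 6.02 to 6.18 in the other 8 dexamethasone libraries. The saline libraries had 5.72 to 6.01, so those 8 stood only slightly above saline. Saline replicate 3 had a summed neutrophil marker level of 8.27 log2 CPM, against 4.58 to 4.94 in the other 3 saline libraries. Calls of the 10 genes that changed without this pair are given both ways. By another measure the libraries that stood out were partly others. The weights that limma gives each library by its fit to its group were lowest for saline replicates 1 and 5 (0.484 and 0.486). Dexamethasone replicate 4 came next with 0.573, the lowest of its group, whereas saline replicate 3 had 1.42.

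Of the 10 genes, 4 rose (Prelp, Aspn, Bgn and Podn), 2 fell (Lum and Kera) and 4 did not pass the test (Dcn, Fmod, Ogn and Omd), at an adjusted p under 0.05 in limma with Benjamini-Hochberg adjustment over all genes. Over all 14911 genes the same test called 48.1%, with 25.2% higher and 22.9% lower in dexamethasone muscles, so 6 of 10 called is near the background. The median log2 fold change was 0.16 over the 10 genes and 0.01 over all genes, and the median absolute log2 fold change was 0.30 over the 10 genes and 0.23 over all genes. For 2 members, Prelp and Lum, the groups did not overlap at all, as was the case for 25.8% of all genes. In whole muscle, fewer cells of a type and less RNA per cell cannot be told apart. The count of members that rose was 1, Prelp alone, when saline replicate 1 was left out, and 2 when dexamethasone replicate 5 or 9 was left out. It was also 2 after quantile normalisation, which ended the calls of Aspn and Podn, and without the intensity trend in limma, which ended those of Aspn and Bgn.

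**Figure D1:**
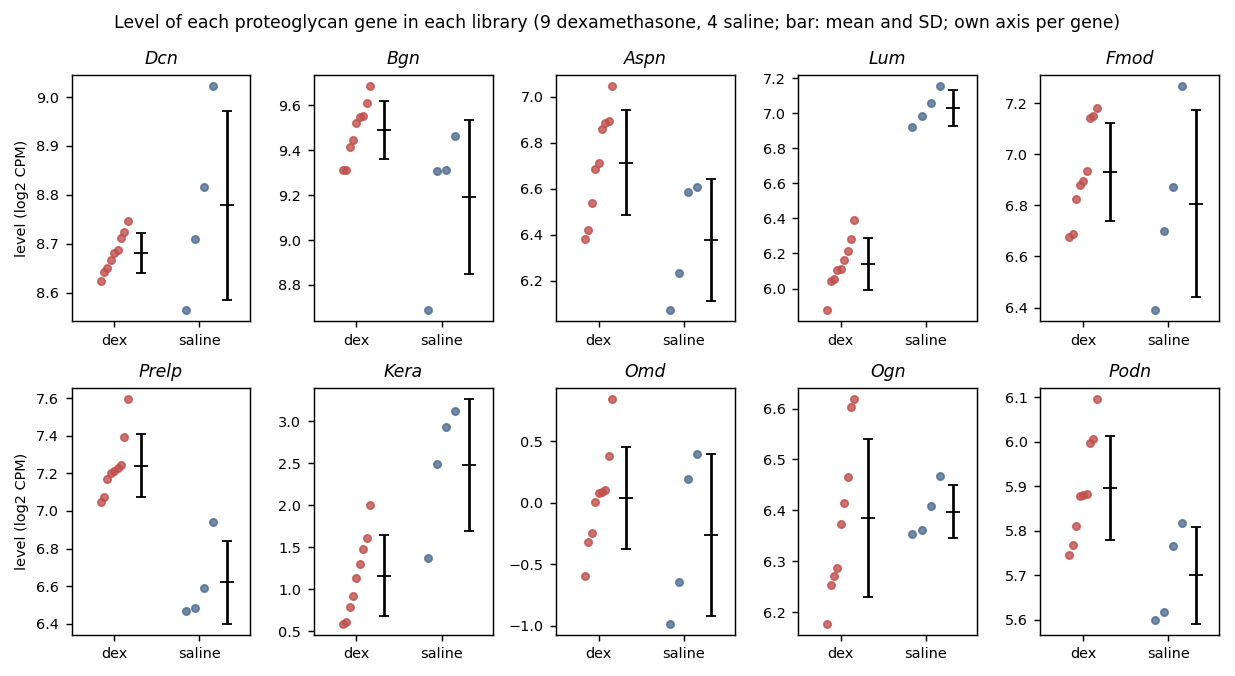
Level of each of the 10 genes in log2 CPM (vertical axis, a separate scale for each gene) in 9 dexamethasone libraries (dex, left) and 4 saline libraries (right). Each point is a mouse, spread sideways in order of value, and bars give the mean and SD; the groups are apart for Lum and Prelp and overlap for the other 8 genes.

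Lumican and PRELP moved in opposite directions and by the largest margins relative to their spread. Lum encodes lumican, which binds collagen fibrils and keeps them thin, and lies at chr10:97565501-97572703 on the plus strand of the mm10 build. It ranged from 5.88 to 6.39 log2 CPM in dexamethasone libraries, with a median of 6.11. The saline libraries stood at 6.98, 7.16, 7.06 and 6.92. Every dexamethasone library was below every saline library. The mean was 6.14 ± 0.15 in dexamethasone muscles and 7.03 ± 0.10 in saline muscles (SD, n = 9 and 4), a log2 fold change of -0.89 ± 0.08 (SE; 95% interval -1.05 to -0.73; adjusted p 4.50e-07, limma). This is 1.85-fold lower.

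Prelp encodes a proteoglycan with a basic, heparin-binding stretch, thought to tether basement membranes to collagen, and lies at chr1:133910304-133930102 on the minus strand. It ranged from 7.05 to 7.60 log2 CPM in dexamethasone libraries (median 7.21), and stood at 6.48, 6.94, 6.59 and 6.47 in saline libraries. The lowest dexamethasone library was above the highest saline library, replicate 2. The mean was 7.24 ± 0.17 in dexamethasone muscles and 6.62 ± 0.22 in saline muscles (SD, n = 9 and 4), and the gene rose 1.54-fold (log2 fold change 0.62 ± 0.10, SE; 95% interval 0.42 to 0.83; adjusted p 9.48e-05, limma). Dexamethasone replicate 4, the library with high Fkbp5, had the highest Prelp and the lowest Lum. Without it and saline replicate 3 the log2 fold changes were 0.57 for Prelp and -0.85 for Lum.

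Keratocan, best known from the cornea, is encoded by Kera at chr10:97606962-97613688 on the plus strand, beside Lum. It was scarce, with 45 to 126 reads per dexamethasone library and 84 to 248 per saline library. It ranged from 0.59 to 2.01 log2 CPM in dexamethasone libraries, with a median of 1.14. Saline replicates 1, 2 and 3 stood at 2.49, 2.94 and 3.12, above every dexamethasone library, whereas saline replicate 5, with 84 reads, lay within the dexamethasone range. Kera fell to 1.16 ± 0.48 log2 CPM in dexamethasone muscles, against 2.48 ± 0.78 in saline muscles (SD, n = 9 and 4). It was 2.49-fold lower (log2 fold change -1.32 ± 0.30, SE; 95% interval -1.96 to -0.68; adjusted p 0.002, limma), and leaving out single libraries moved the log2 fold change between -1.69, without saline replicate 5, and -1.10, without saline replicate 3. Without saline replicate 3 and dexamethasone replicate 4 together it was -1.06 (adjusted p 0.0166, limma).

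The class of decorin, biglycan and asporin gave smaller differences. Dcn encodes decorin, which wraps collagen I fibrils and holds TGF-beta and myostatin in the matrix, and lies at chr10:97479500-97518163 on the plus strand. It had 11599 to 14416 reads in each library and ranged from 8.62 to 8.75 log2 CPM in dexamethasone libraries (median 8.68). Saline libraries stood at 8.82, 9.02, 8.71 and 8.56, spanning the whole dexamethasone range. The difference of -0.10 ± 0.07 (SE; 95% interval -0.24 to 0.04) did not pass (adjusted p 0.235, limma). Without saline replicate 5, the lowest, it was -0.17 and passed (adjusted p 0.0288, limma).

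Bgn encodes biglycan, which binds collagen and, when freed from the matrix, acts on Toll-like receptors 2 and 4, and lies at chrX:73483601-73495936 on the plus strand. It ranged from 9.31 to 9.69 log2 CPM in dexamethasone libraries (median 9.52) and stood at 8.69, 9.31, 9.31 and 9.46 in saline libraries. The groups overlapped, with 5 of 9 dexamethasone libraries above the highest saline library and saline replicate 1 well below all others. Bgn rose 1.23-fold (9.49 ± 0.13 log2 CPM in dexamethasone muscles and 9.19 ± 0.34 in saline muscles, SD, n = 9 and 4; log2 fold change 0.30 ± 0.11, SE; adjusted p 0.0408, limma). The call rested on single libraries. It ended without saline replicate 1, where the log2 fold change was 0.13 (adjusted p 0.210, limma), and without dexamethasone replicate 4, 5, 6, 8 or 9, where it was 0.27 to 0.29 (adjusted p 0.0584 to 0.0637, limma). It ended too without saline replicate 3 and dexamethasone replicate 4 together (0.31; adjusted p 0.0638, limma).

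Aspn encodes asporin, which bears a run of aspartates in place of a sugar chain, competes with decorin for collagen and binds TGF-beta, and lies at chr13:49544443-49567565 on the plus strand. It ranged from 6.38 to 7.05 log2 CPM in dexamethasone libraries, with a median of 6.71. Saline libraries stood at 6.07, 6.24, 6.61 and 6.59, and 6 of 9 dexamethasone libraries were above the highest of them. Aspn rose 1.26-fold (6.71 ± 0.23 log2 CPM in dexamethasone muscles and 6.38 ± 0.26 in saline muscles, SD, n = 9 and 4; log2 fold change 0.34 ± 0.12, SE; adjusted p 0.0337, limma). By limma the call ended without saline replicate 1 (0.24; adjusted p 0.146), without saline replicate 2 (0.29; adjusted p 0.107) and without dexamethasone replicate 2, 3, 5 or 9 (0.30 to 0.32; adjusted p 0.0523 to 0.0546, limma).

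Podn encodes podocan, a collagen-binding member known to restrain smooth muscle cell growth, and lies at chr4:108014793-108031954 on the minus strand. It ranged from 5.75 to 6.10 log2 CPM in dexamethasone libraries (median 5.88) and stood at 5.62, 5.77, 5.60 and 5.82 in saline libraries. All saline libraries were in or below the lower part of the dexamethasone range, and 6 of 9 dexamethasone libraries exceeded them all. The rise was 1.15-fold (5.90 ± 0.12 log2 CPM in dexamethasone muscles and 5.70 ± 0.11 in saline muscles, SD, n = 9 and 4; log2 fold change 0.20 ± 0.07, SE; adjusted p 0.0218, limma). It was not called without saline replicate 1 (0.17; adjusted p 0.0719, limma), without saline replicate 3 (0.16; adjusted p 0.0848, limma) or without saline replicate 3 and dexamethasone replicate 4 together (0.14; adjusted p 0.107, limma).

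The remaining 3 genes did not pass. Fmod encodes fibromodulin, which shares a collagen site with lumican and is abundant in tendon, and lies at chr1:134037254-134048280 on the plus strand. It ranged from 6.68 to 7.18 log2 CPM in dexamethasone libraries (median 6.90), against 6.87, 6.70, 7.27 and 6.39 in saline libraries. The saline libraries took both extremes, and the log2 fold change of 0.12 ± 0.13 (SE; 95% interval -0.15 to 0.40) did not pass (adjusted p 0.457, limma). Leaving out saline replicate 3 and dexamethasone replicate 4 together gave 0.31 (adjusted p 0.0386, limma), and leaving out saline replicate 5 gave -0.02. Ogn encodes osteoglycin, also called mimecan, a collagen-binding protein of bone and other connective tissue, and lies at chr13:49608015-49624501 on the plus strand. It ranged from 6.18 to 6.62 log2 CPM in dexamethasone libraries (median 6.37), and its saline libraries lay close together at 6.35, 6.36, 6.41 and 6.47. Its log2 fold change was -0.01 ± 0.07 (SE; 95% interval -0.17 to 0.15; adjusted p 0.904, limma). Omd encodes osteomodulin, or osteoadherin, a cell-binding protein of mineralising matrix, and lies at chr13:49582462-49592612 on the plus strand. With only 16 to 53 reads per library it ranged from -0.59 to 0.84 log2 CPM in dexamethasone libraries and from -0.98 to 0.39 in saline libraries. Its log2 fold change of 0.30 ± 0.28 (SE; 95% interval -0.30 to 0.89; adjusted p 0.404, limma) was within its spread, and a difference of the size seen for Prelp was inside its interval. It was 0.06 without saline replicate 5, 0.17 without saline replicate 1, 0.51 without saline replicate 3 and 0.01 with library weights in limma, and it was called in none of these.

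**Figure D2:**
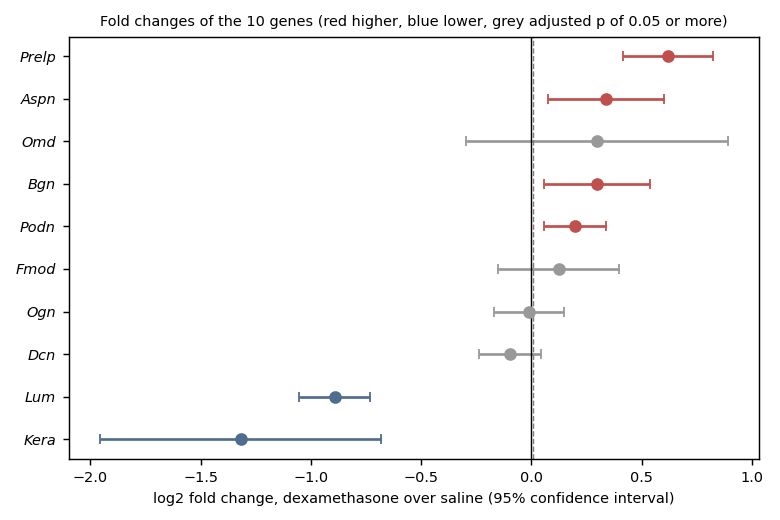
Log2 fold change of each of the 10 genes, dexamethasone over saline (horizontal axis), with 95% confidence intervals from limma over 9 dexamethasone and 4 saline libraries. Red genes were higher and blue genes lower at an adjusted p under 0.05, grey genes were not called, and the dashed line marks the median of all genes at 0.01; Lum and Kera stand left of 0, and Prelp is farthest right.

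In the authors' deposited table the same 6 genes had an adjusted p under 0.05. The largest gap from the values above was for Kera, with a log2 fold change of -1.27 (adjusted p 0.0044) in the authors' deposited table.

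Per kilobase of exon, which allows a rough comparison of genes, the family spanned a wide range. The length counted every base in an exon of any GENCODE transcript of the gene. It was 5838 bases for Dcn, 6099 for Bgn, 2448 for Lum and 2354 for Aspn. Where the transcript present is shorter than that, the level is understated, so the order and the shares below depend on these lengths. Other lengths were not tested. In dexamethasone muscles biglycan was the most abundant transcript at 6.88 ± 0.13 log2 CPM per kilobase, followed by decorin at 6.14 ± 0.04 (SD, n = 9). Next came Aspn at 5.48, Prelp at 5.39, Fmod at 5.21, Ogn at 5.03 and Lum at 4.85, then Podn at 3.80, Kera at -0.03 and Omd at -1.13. The middle of that order was not firm, since Aspn exceeded Prelp in 6 of 9 libraries, Prelp exceeded Fmod in 6 and Fmod exceeded Ogn in 7. Every other step held in all 9 dexamethasone libraries.

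In saline muscles Bgn and Dcn again led, at 6.58 ± 0.34 and 6.23 ± 0.19 log2 CPM per kilobase (SD, n = 4), and Bgn exceeded Dcn in 3 of 4 libraries. Lum came next at 5.74, above Aspn in all 4 libraries, where in dexamethasone muscles it stood below Ogn in all 9. Aspn at 5.14, Fmod at 5.08 and Ogn at 5.04 could not be ordered, each exceeding the next in 2 of 4 libraries. Prelp followed at 4.77, below Ogn in 3 of 4 libraries, then Podn at 3.61, Kera at 1.29 and Omd at -1.43.

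Summed CPM over the family ranged from 1611 to 1831 in dexamethasone libraries, with a median of 1745, and from 1401 to 1746 in saline libraries, with a median of 1649. The totals overlapped, while the make-up differed. Of the summed CPM per kilobase, lumican took 7.42 ± 0.77% in dexamethasone muscles and 14.4 ± 0.97% in saline muscles (SD, n = 9 and 4), with ranges of 6.02% to 8.42% and 13.4% to 15.6% that did not meet. Prelp took 10.8 ± 1.16% in dexamethasone muscles and 7.36 ± 0.88% in saline muscles, and biglycan took 30.3 ± 2.09% in dexamethasone muscles and 26.1 ± 4.45% in saline muscles. Decorin took 18.1 ± 0.73% in dexamethasone muscles and 20.4 ± 2.91% in saline muscles. These shares are descriptions, since each depends on the other members and on the exon lengths used.

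**Figure D3:**
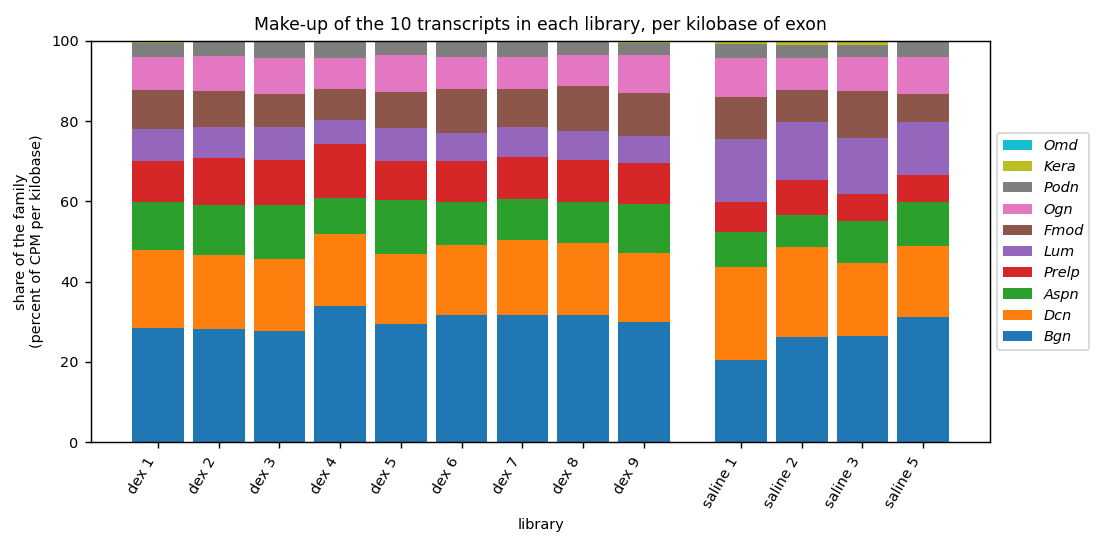
Make-up of the family in each library, as the percent of the summed CPM per kilobase taken by each of the 10 genes (vertical axis), for 9 dexamethasone libraries (dex 1 to 9, left) and 4 saline libraries (right). Lum takes 6.02% to 8.42% of each dexamethasone bar and 13.4% to 15.6% of each saline bar, while Bgn is the largest segment in all but saline 1.

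Ratios within a library do not depend on how libraries are scaled, and 8 pairs that share a class, a collagen site or a gene cluster were compared by exact permutation of the groups, two-sided, over every way of splitting the libraries into 9 and 4; the smallest p this allows is 0.0014. Lumican and fibromodulin compete for a collagen site. Their log2 ratio of reads ranged from -1.10 to -0.39 in dexamethasone libraries and was 0.11, 0.46, -0.21 and 0.53 in saline libraries. All 9 dexamethasone libraries were below all 4 saline libraries, and the means were -0.79 ± 0.24 in dexamethasone muscles and 0.22 ± 0.34 in saline muscles (SD, n = 9 and 4; difference -1.01, exact permutation p 0.0014, 0.0056 adjusted over the 8 pairs). Lum over Dcn was likewise apart, at -2.54 ± 0.15 in dexamethasone muscles and -1.75 ± 0.12 in saline muscles (SD, n = 9 and 4; difference -0.79, exact permutation p 0.0014, adjusted p 0.0056).

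Asporin over osteoglycin, neighbours on chromosome 13, was higher than every saline library in 8 of 9 dexamethasone libraries. The log2 ratio averaged 0.33 ± 0.12 in dexamethasone muscles and -0.02 ± 0.22 in saline muscles (SD, n = 9 and 4; difference 0.35, exact permutation p 0.0042, adjusted p 0.0112). In 3 further ratios the groups overlapped more and an adjusted exact permutation p of 0.0466 was reached. These were Dcn over Bgn (-0.81 ± 0.13 in dexamethasone muscles and -0.41 ± 0.44 in saline muscles), Aspn over Dcn (-1.97 ± 0.22 in dexamethasone muscles and -2.40 ± 0.42 in saline muscles) and Fmod over Prelp (-0.31 ± 0.29 in dexamethasone muscles and 0.19 ± 0.42 in saline muscles; SD throughout).

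Each of those 3 calls ended when any of several libraries was left out. For Dcn over Bgn these were saline replicate 1, 2 or 3 and dexamethasone replicate 3, 4, 5, 6 or 9, with differences from -0.45 to -0.21 and adjusted exact permutation p from 0.0525 to 0.164. For Aspn over Dcn they were saline replicate 1 or 2 and dexamethasone replicate 1, 2, 3, 5, 6 or 9, with differences from 0.31 to 0.44 and adjusted exact permutation p from 0.0566 to 0.176. For Fmod over Prelp they were saline replicate 1 or 3 and every dexamethasone replicate except 8, with differences from -0.53 to -0.33 and adjusted exact permutation p from 0.0549 to 0.182. Ogn over Omd and Kera over Lum did not pass (differences -0.31 and -0.43, adjusted exact permutation p 0.319 and 0.288). With single libraries left out, the difference lay between -0.52 (without saline replicate 3) and -0.05 (without saline replicate 5) for Ogn over Omd, and between -0.76 (without saline replicate 5) and -0.22 (without saline replicate 3) for Kera over Lum, with no call.

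**Figure D4:**
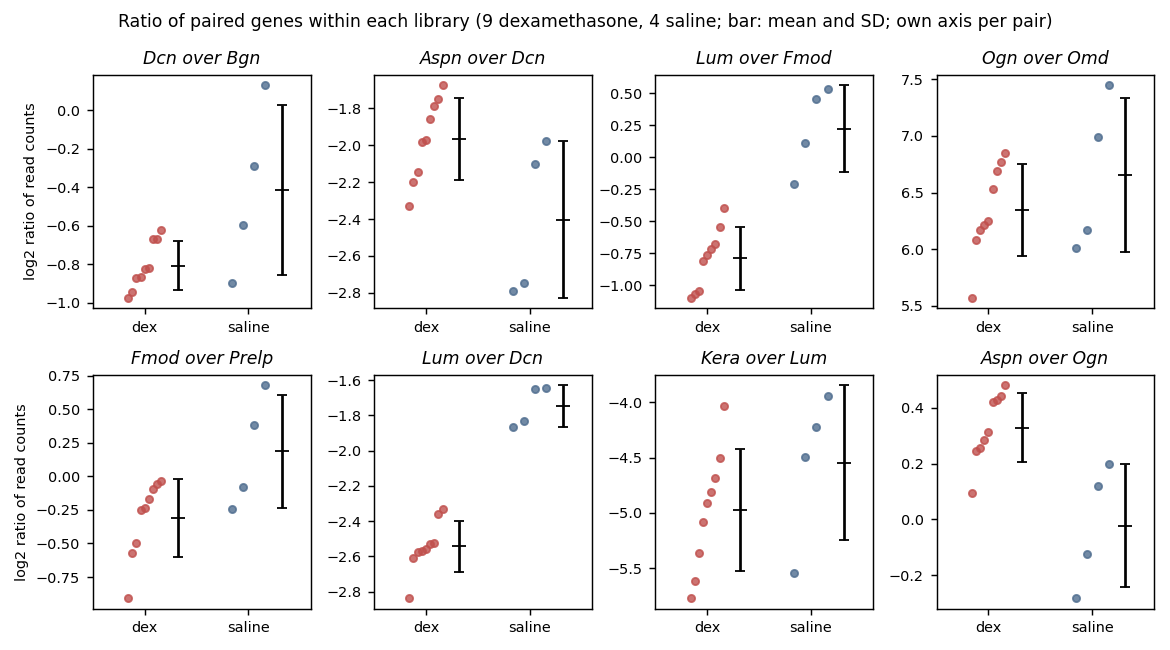
Log2 ratio of the reads of 8 pairs of genes within each library (vertical axis, a separate scale for each pair), for 9 dexamethasone libraries (dex, left) and 4 saline libraries (right). Each point is a mouse, spread sideways in order of value, and bars give the mean and SD; for Lum over Fmod and Lum over Dcn no dexamethasone point reaches the saline points.

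Most members sit in clusters left by gene duplication. On chromosome 10, Dcn, Lum and Kera follow each other on the plus strand within 134.2 kb, with gaps of 47.3 and 34.3 kb. Their log2 fold changes were -0.10, -0.89 and -1.32 in that order, and the ratio of Lum over Dcn differed between the groups, as given above. On chromosome 13, Aspn, Omd and Ogn lie within 80.1 kb, with gaps of 14.9 and 15.4 kb, and had log2 fold changes of 0.34, 0.30 and -0.01. Ecm2, a related gene beside them, differed by -0.01 on the log2 scale (adjusted p 0.908, limma). Cenpp, a centromere gene, runs through this cluster on the opposite strand with 28 to 85 reads per library, and the sources used here do not say whether counting used the strand, so its reads and theirs may be mixed. On chromosome 1, Prelp and Fmod lie 107.2 kb apart, with log2 fold changes of 0.62 and 0.12.

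Among the 9 dexamethasone libraries, 7 pairs of cluster neighbours were examined for correlated levels. Ogn and Aspn varied together (Pearson r 0.86, exact permutation p 0.0037, adjusted p 0.0262; Spearman rho 0.80, exact permutation p 0.0138, adjusted p 0.0968), and r was 0.84 without the 2 libraries farthest from the median of Ogn. Both genes were highest in dexamethasone replicate 5. For the other 6 pairs r lay between -0.59 (Dcn and Kera) and 0.48 (Omd and Aspn), with adjusted exact permutation p of 0.330 or more. Without the 2 libraries farthest from the median of the gene named first, r was 0.69 for Ogn and Omd, -0.70 for Lum and Kera, 0.01 for Dcn and Lum and 0.13 for Omd and Aspn, and it moved little for the remaining pairs (-0.62 for Dcn and Kera, -0.35 for Fmod and Prelp).

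Among 12510 genes outside the family, those most like each abundant member were found by the Pearson correlation of deviations from the group mean over 13 libraries, as a description. For Aspn they were Mrc2, a collagen uptake receptor (r 0.94), Runx2, an osteoblast transcription factor (0.93), and Sema4b (0.92). For Prelp they were Tgfbr3, a TGF-beta co-receptor (0.92), Adgrg2 (0.89) and Pdgfra, a receptor of connective tissue progenitors (0.89). For Fmod they were Cilp2 (0.91), Alpl, the alkaline phosphatase of mineralising cells (0.89), and Pcp4l1 (0.86). For Lum they were Abca1 (0.91), Klhl20 (0.88) and Usp49 (0.87), and for Dcn Adcy1 (0.89), Add3 and Ppp1r3e (0.87 each). For Bgn they were Rassf2, Mettl8 and Zbtb6 (0.89 to 0.90), for Ogn Slc30a7, Slc46a1 and Gnpda2 (0.89 to 0.90), and for Podn Birc3 (0.88), Ggt5 (0.86) and Gas6 (0.85). The 13 points share library depth and composition, and the highest of so many correlations is high by selection.

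The lists that follow are to be read against the 48.1% of all genes called, 25.2% higher and 22.9% lower. Of 5 measured relatives of the family, 1 rose, 1 fell and 3 did not pass, with a median log2 fold change of -0.01, so the share called was near that background. Tsku, which encodes tsukushi, a secreted leucine-rich protein that modulates signalling, had 5.02 ± 0.18 log2 CPM in dexamethasone muscles and 3.99 ± 0.22 in saline muscles (SD, n = 9 and 4). It rose 2.05-fold (adjusted p 1.90e-06, limma), with no overlap between groups. Chadl, a chondroadherin-like gene, was 1.82-fold lower (adjusted p 0.0023, limma), and Chad, chondroadherin, differed by -0.51 on the log2 scale and was not called (adjusted p 0.107, limma).

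Of 23 genes for the sugar chain's linker and for chondroitin or dermatan sulphate, 13 rose (25.2% of all genes did), 1 fell (Chst3, named after its value was seen) and 9 did not pass, with a median log2 fold change of 0.28 against 0.01 over all genes. Chst11, which sulphates chondroitin, rose 2.74-fold (adjusted p 3.37e-07, limma), with no overlap between groups. Csgalnact1, which starts the chondroitin chain, rose 1.99-fold (adjusted p 5.41e-05, limma), and Ust, which sulphates uronic acid in the chain, rose 1.46-fold (adjusted p 1.73e-05, limma). Among 9 measured genes that supply sugar and sulphate donors, 5 rose and 4 did not pass, so that the share called was near the 48.1% of all genes, with a median of 0.25. They included Ugdh, which makes UDP-glucuronic acid (1.68-fold; adjusted p 3.50e-05, limma), Papss2, which makes the sulphate donor (1.41-fold), and Bpnt2, which clears its by-product (1.36-fold). The others were Uxs1, which makes UDP-xylose, and Slc26a2, a sulphate transporter. Beyond the naming rule, genes listed only by name here and below were added after their values were seen, to complete short counts.

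Of 11 measured genes listed for keratan sulphate, 3 rose, 1 fell (B4galt4, named after its value was seen) and 7 did not pass. The share called was near the 48.1% of all genes, and the median log2 fold change was 0.05. Not all genes of this list are enzymes or specific to keratan sulphate. Chst2, a sulphotransferase acting on N-acetylglucosamine, rose 1.82-fold (adjusted p 2.26e-05, limma). B4galt1, a galactosyltransferase, rose 1.30-fold and St3gal1, a sialyltransferase, 1.24-fold. These 3 lists were not tested against each other or against other genes.

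**Figure D5:**
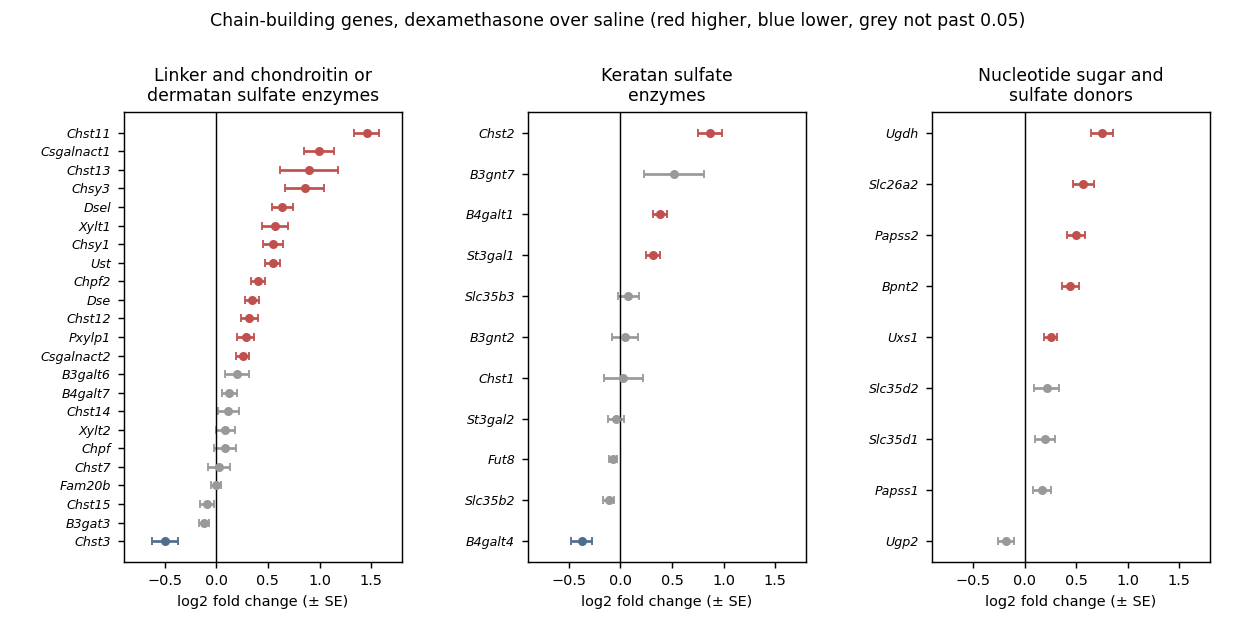
Log2 fold change, dexamethasone over saline, with its SE from limma (horizontal axis), of measured genes that build the sugar chains, in 3 panels. Red genes were higher and blue genes lower at an adjusted p under 0.05, and grey genes were not called; red genes number 13 of 23, 3 of 11 and 5 of 9 from left to right.

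Among 18 fibrillar collagens and fibril partners, 6 rose, 2 fell and 10 did not pass, with a median log2 fold change of 0.04. The main collagens that the family binds were not called, with log2 fold changes of -0.15 for Col1a1, -0.19 for Col1a2 and -0.14 for Col3a1 (adjusted p 0.412, 0.229 and 0.397, limma); these 3 were picked as the main partners. Col12a1, a collagen on the surface of fibrils, rose 2.11-fold (adjusted p 1.14e-05, limma), and Fbn1, the microfibril protein fibrillin, rose 1.71-fold. Col11a2, of cartilage-type fibrils, was 2.39-fold lower (adjusted p 2.69e-05, limma), and the other gene that fell was Col14a1, named after its value was seen. Among 19 measured proteoglycans of other families, 9 rose, 4 fell and 6 did not pass, with a median of 0.22. Prg4, the joint lubricant lubricin, rose 6.84-fold (adjusted p 8.73e-07, limma), Cspg4, a pericyte proteoglycan, 1.67-fold and Sdc4, a syndecan, 1.61-fold. The 4 that fell were Agrn, Gpc1, Gpc3 and Gpc4.

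The next list held 18 measured genes for receptors, ligands and signalling partners of decorin or biglycan, not all of them bound directly. Among the 11 that rose (25.2% of all genes did) was Nlrp3, a sensor inside the cell. A further 2 fell (P2rx4 and P2rx7, named after their values were seen) and 5 did not pass. The median log2 fold change was 0.43 against 0.01 over all genes. Ccn2, a matricellular growth factor regulator bound by decorin, rose 3.19-fold (adjusted p 2.28e-07, limma), Ccn4, a relative that binds both, 2.62-fold, and Met, a decorin receptor, 1.50-fold. Of 15 measured proteases known to cut matrix proteins of this kind, with their enhancers, 5 rose, 4 fell and 6 did not pass, with a median of -0.16. The macrophage elastase gene Mmp12 rose 2.90-fold, and the aggrecanase genes Adamts4 and Adamts5 rose 1.83-fold and 1.73-fold. Tll1, a relative of the protease that trims biglycan, and Pcolce2, an enhancer of that protease, also rose, and Mmp2, Htra1, Gzmb and Tpsb2 fell.

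Some markers of cell types that make or dilute these transcripts moved as well, and their part in the results above was not tested. Of 12 fibroblast and fibro-adipogenic progenitor markers, 3 rose, 4 fell and 5 did not pass, with a median log2 fold change of -0.07. Their summed level ranged from 11.56 to 11.82 log2 CPM in dexamethasone libraries and from 11.18 to 11.58 in saline libraries, overlapping slightly, and Gsn, gelsolin, is the main part of that sum. Cxcl14, a chemokine, rose 2.77-fold and Gsn 1.50-fold, while Clec3b was 1.49-fold lower (adjusted p 9.62e-06, 9.73e-05 and 8.34e-05, limma). Mfap5 rose too, and Cd34, Dpt and Smoc2 fell. Pdgfra had a log2 fold change of -0.03. No marker list held a gene at 0 reads in all libraries.

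Of 8 tendon cell markers, 3 rose, 4 fell and 1 did not pass, and their summed level ranged from 10.17 to 10.57 log2 CPM in dexamethasone libraries and from 9.45 to 9.78 in saline libraries, with no overlap. Thbs4 carried most of that sum and rose 1.78-fold, Scx, a tendon transcription factor, rose 1.82-fold, and Cpxm1 was 2.64-fold lower. Comp rose too, and Tnmd, Col22a1 and Ptx4 fell. Of 12 mature muscle fibre markers, 5 fell and 7 did not pass, with a median of -0.52. Their summed level ranged from 16.42 to 17.00 log2 CPM in dexamethasone libraries and from 17.04 to 17.61 in saline libraries, also without overlap. Casq1 (calsequestrin, which holds calcium in the fibre) fell by 0.96 on the log2 scale, and Eno3, Myl1, Mylpf and Pvalb fell too.

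Of 10 measured cartilage and bone cell markers, 1 rose (Runx2, 1.63-fold), 1 fell (Sp7, named after its value was seen) and 8 did not pass. Sp7, an osteoblast transcription factor, was 8.82-fold lower (adjusted p 1.48e-06, limma, no overlap). It was scarce, with 8 to 181 reads per library and a mean of -1.01 log2 CPM in dexamethasone muscles. The summed level of the 10 markers ranged from 5.07 to 5.56 log2 CPM in dexamethasone libraries and from 4.89 to 6.21 in saline libraries. Ibsp had no read in some libraries. Smooth muscle and pericyte markers had 1 of 8 higher (Pdgfrb), with sums of 9.67 to 9.91 in dexamethasone libraries and 9.66 to 9.92 in saline libraries. Of 7 endothelial markers, 0 were called in limma or with voom and 2 had an unadjusted p under 0.05, with sums of 8.33 to 8.61 in dexamethasone libraries and 8.24 to 8.56 in saline libraries. Of 8 macrophage markers, 3 rose, 1 fell and 4 did not pass, with sums of 10.25 to 10.46 log2 CPM in dexamethasone libraries and 9.79 to 10.40 in saline libraries. Mrc1, a mannose receptor, rose 2.50-fold, Cd68 and Itgam rose too, and Csf1r fell. Of 6 adipocyte markers, 4 rose (Adipoq, Plin1, Cidec and Lep) and 1 fell (Car3), with sums of 9.94 to 10.78 in dexamethasone libraries and 10.12 to 10.75 in saline libraries. Car3 had the highest mean of these markers, 8.93 log2 CPM in dexamethasone muscles and 9.64 in saline muscles, so its fall weighs on the sums. Of 6 satellite cell and myoblast markers, 1 rose (Myod1) and 2 fell (Chodl and Calcr), with sums of 7.10 to 7.53 in dexamethasone libraries and 6.91 to 7.55 in saline libraries. Of 7 neutrophil markers, 1 rose (Mmp8) and 2 fell (Csf3r and Retnlg), with sums of 4.49 to 5.68 in dexamethasone libraries and 4.58 to 8.27 in saline libraries, the highest being saline replicate 3. Several marker counts moved by over 1.5 times with single libraries or settings. Without saline replicate 5, limma called 0 neutrophil, 3 adipocyte, 3 smooth muscle, 4 cartilage and bone and 9 mature fibre markers; without saline replicate 3 it called 5 cartilage and bone and 3 adipocyte markers. Without saline replicate 1 or 2, or dexamethasone replicate 4, it called 2 endothelial markers. Without saline replicate 3 and dexamethasone replicate 4 together it called 5 cartilage and bone and 2 endothelial markers. Mature fibre markers called numbered 8 under the filter on low values and 9 without the intensity trend, with robust priors or with voom. Endothelial markers called numbered 2 after quantile normalisation and 1 with library weights or on the 8 numbered libraries, and 1 neutrophil marker was called on those 8 libraries or under the filter, which also left 1 cartilage and bone marker called.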

How the data were processed

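Messenger RNA was measured in 13 libraries, 9 from dexamethasone and 4 from saline mice, grouped by the labels' treatment. Per the labels' protocols, libraries were stranded and polyadenylated RNA was selected. Per the submitters' processing notes, featureCounts 2.0.1 and limma 3.50.1 were used, with the mouse build mm10. The sources used here do not give the aligner, the strand setting or a low-count filter. Log2 CPM values for each mouse were deposited by the authors, beside fold changes (log2) and p-values from their comparison. Of the deposited tables, the main one (14911 genes) was normalised without the excluded saline mouse; the other (14970 genes) was normalised with it, and its 1 column for that mouse was not used. The deposited log2 values gave whole reads in 100% of cases, within 0.01 of a whole number. Over the 42 within-group pairs of libraries, the lowest chi-square per gene of those reads was 7.31, and libraries were treated as separate samples.

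Dexamethasone was set against saline in limma 3.58.1 under R 4.3.3, with variance moderation along an intensity trend, two-sided p-values and Benjamini-Hochberg adjustment over all genes, called under 0.05. Log2 fold changes are differences between group means of log2 CPM. The main fit takes each gene's variance as equal in both groups, although some genes, such as Bgn and Dcn, varied more among saline mice. Ratios and correlations were tested by exact permutation (scipy 1.17.1). Intervals are 95% confidence intervals. Exon lengths came from GENCODE M21, and coordinates and promoters from RefSeq through Entrez identifiers (14909 genes matched), on the same build. The limma fit and the exact permutation test between groups were run, gene by gene, on simulated counts with known changes. The other steps were not simulated.

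The family and the gene lists were chosen with earlier results of these data known. Genes named were the 10 members, in each list the 3 measured genes of smallest adjusted p whose mean log2 CPM was 0 or more, and the 3 genes most like each member averaging 5 or more log2 CPM, among genes averaging 1 or more; others are said to be named after their values were seen. A marker list for a further cell type is not reported here. In the donor list, Impad1 is the older symbol of Bpnt2, so 9 of its 10 symbols were measured as separate genes. Reversal was only counted for values past the threshold under at least 1 of the settings compared. Alternatives were the other table, log2 of CPM plus 1, only genes averaging 1 or more log2 CPM, quantile normalisation, median centring, voom on recovered reads, no intensity trend, library weights, robust priors, exact permutation, blocking by mouse number, and libraries left out. Fitting the 8 numbered libraries unblocked was chosen after seeing the data. Figures were drawn with matplotlib 3.10.9.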

Additional observations from a re-analysis of the deposited data

How the results depend on the processing

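Lum, Prelp and Kera kept their direction and their call under all 26 alternatives, with adjusted p up to 0.0059, 0.0059 and 0.0166, and no called value changed sign. Bgn was not called without the intensity trend (0.30), on the 8 numbered libraries (0.20 with the replicate block and 0.20 without it), without saline replicate 3 and dexamethasone replicate 4 together (0.31) or by exact permutation (0.30; adjusted p 0.0527). Aspn was not called after quantile normalisation (0.30), without the trend (0.34) or by exact permutation (0.34; adjusted p 0.08), and Podn not after quantile normalisation (0.15), with the replicate block (0.20) or without that pair of libraries (0.14), where Fmod was called (0.31). Members called higher then numbered 2 after quantile normalisation, 2 without the trend and 2 with the block, and relatives called numbered 1 under the filter on low values, which drops a gene. Leaving out each library gave ranges of -0.17 to -0.015 for Dcn, 0.13 to 0.39 for Bgn, 0.24 to 0.42 for Aspn, 0.16 to 0.24 for Podn and 1 to 4 for members called higher, and -0.55 to -0.21 for Dcn over Bgn, 0.31 to 0.58 for Aspn over Dcn and -0.64 to -0.33 for Fmod over Prelp. Without that pair of libraries Dcn over Bgn (-0.43) and Fmod over Prelp (-0.26) were not called. Whether the mouse numbers pair the samples was not settled, since 4 numbers are too few to exclude it. Same-numbered deviations correlated at -0.07 to 0.118 over 4 numbers, and 2 of 4 saline libraries correlated best with their own number. On the 8 numbered libraries no ratio could pass with the block, whose smallest exact permutation p is 0.125. With and without it the differences were -0.28 for Dcn over Bgn, 0.59 for Aspn over Dcn and -0.81 for Lum over Fmod. They were -0.55 for Fmod over Prelp, -0.69 for Lum over Dcn and 0.46 for Aspn over Ogn, and none was called. Without the block the smallest exact permutation p is 0.0286. Lum over Fmod, Lum over Dcn, Aspn over Dcn and Aspn over Ogn had an adjusted exact permutation p of 0.0571 there. At that floor a ratio passes the adjustment only if several others reach it too, so no conclusion is drawn from the missing calls. Except where the construction shows it (fewer samples or genes), the cause was not tested. Depth limits Kera and Omd, with 45 to 248 and 16 to 53 reads; Omd has no value under the filter on low values.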
